A study of Mus musculus with 4 samples.

Results

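The 10 genes described here encode the proteins that hold RNA polymerase II near a promoter or let it go. They were chosen by name: Hexim1, Larp7 and Mepce for the 7SK small nuclear ribonucleoprotein (snRNP), Cdk9, Ccnt1 and Ccnt2 for the kinase P-TEFb, and the genes listed as Whsc2, Cobra1, Th1l and Rdbp for the 4 subunits of NELF. The current names of the NELF genes are Nelfa, Nelfb, Nelfcd and Nelfe. All 10 were found among 14533 genes in the table, and all 10 passed the expression filter that left 13005 genes for testing.

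The RNA came from mouse embryonic stem cells (ESCs) adapted for over 20 days to medium with serum or to 2i, with 2 libraries, described as biological replicates, for each condition. Serum medium contained LIF, and 2i medium was serum-free Ndiff 227 with LIF, the GSK3 inhibitor CHIR99021 and the MEK inhibitor PD0325901. Cells were sorted for G1-phase before RNA extraction. Late G1-phase is given by the sample labels and by the study's legend for its RNA comparison with 2 biological replicates. The series description gives early G1-phase. Neither the labels nor that description names the cell line of these libraries (the study built its FUCCI cell-cycle reporter into R1 ESCs). Total RNA was depleted of ribosomal RNA, so that RNAs without a poly(A) tail, such as 7SK, were also sequenced.

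After initiation, RNA polymerase II often stops a short way downstream of the start site. NELF, together with DSIF, holds it there. P-TEFb, a kinase made of CDK9 and a cyclin T, phosphorylates NELF, DSIF and the polymerase, and elongation then resumes. Part of the P-TEFb of a cell is kept inactive in the 7SK snRNP, in which the 7SK RNA and HEXIM1 inhibit the kinase, LARP7 binds the 3′ end of the RNA and MEPCE caps its 5′ end. These measurements are of RNA, and say nothing of protein levels, of the sharing of P-TEFb between complexes or of pausing itself.

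The 7SK RNA is shown first, since the rest of the snRNP is built on it. The table holds 12 genes named 7SK, of 331 in the annotation, and the gene ENSMUSG00000065037 took 99.69% of their reads. It lies on the minus strand at chr9:78023110-78023440 (NCBIM37, the same assembly as mm9), is 331 bases long and has a GC content of 58.01%. Its nearest protein-coding genes, Fbxo9 and Ick on one side and Gsta4 and Gsta1 on the other, are also those of the RefSeq gene Rn7sk (Ick is listed there as Cilk1). The first 300 bases (chr9:78023141-78023440, minus strand) are printed 5′ to 3′ as DNA, with every GATC in capitals, because the 5′ hairpin with its repeated GAUC motifs is the part that HEXIM1 binds.
7SK: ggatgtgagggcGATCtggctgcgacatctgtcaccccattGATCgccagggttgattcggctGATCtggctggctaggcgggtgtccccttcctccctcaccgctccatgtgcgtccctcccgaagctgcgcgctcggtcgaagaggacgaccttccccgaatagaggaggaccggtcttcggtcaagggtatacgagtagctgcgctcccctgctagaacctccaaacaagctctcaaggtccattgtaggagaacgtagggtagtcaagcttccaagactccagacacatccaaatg
GATC, which reads the same on both strands, occurs 3 times, at bases 13 to 16, 42 to 45 and 64 to 67. At least 3 copies were also present in 8.64% of the 81 other genes typed misc_RNA in the table.

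No member passed the test of serum ESCs against 2i ESCs, which was limma on log2(normalized count + 1) with a call at a Benjamini-Hochberg adjusted p under 0.05 and a change of more than 2-fold. The number of members called was 0 of 10, against 0.0154% of all genes (2 of 13005). Both called genes were copies of the U1 small nuclear RNA, a family of near-identical genes among which reads may be split, and they were listed at 0 in both serum libraries and named here after their values were seen. No member reached an unadjusted p under 0.05 in limma either, where 2.97% of all genes did so with higher values in serum and 3% with higher values in 2i. Count models gave the same number of members, 0 of 10, both in edgeR, which called no gene at all, and in DESeq2, which called 1.95% of all genes. With 2 libraries per condition an exact permutation test has 3 possible splits, so its two-sided p is at least 0.333. In such bulk RNA, fewer cells with a transcript and less of it per cell cannot be told apart. The tests are also too weak to show that the levels were equal, and the intervals below give the range left by the data.

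**Figure D1:**
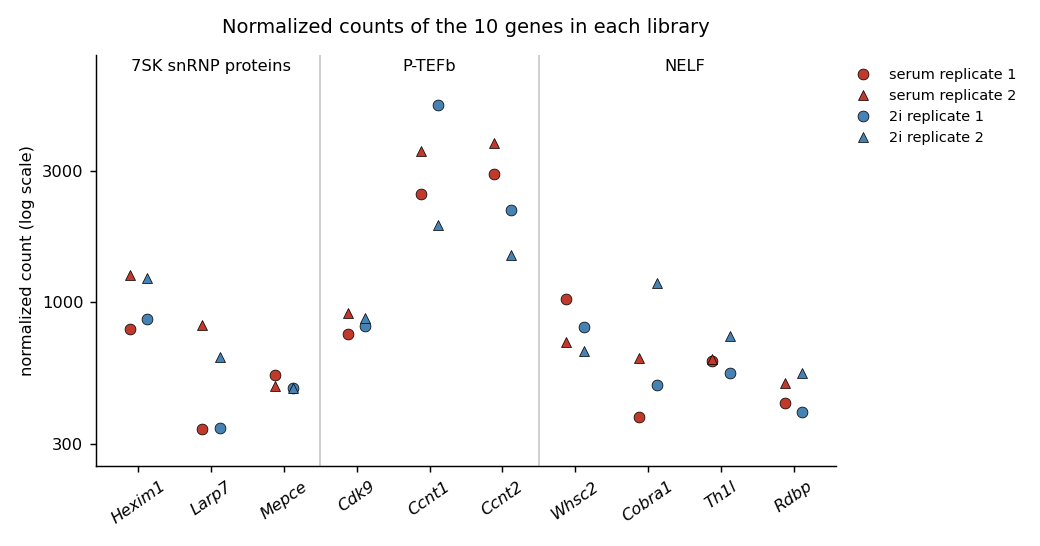
Normalized counts (log scale) of the 10 genes in each of the 4 libraries, grouped by complex, with serum in red and 2i in blue and the replicate shown by the symbol. Serum and 2i points are interleaved for 8 of the 10 genes. In Mepce and Ccnt2 both serum points lie above both 2i points.

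The first group is formed by the proteins of the 7SK snRNP. Hexim1 (ENSMUSG00000048878, chr11:102977639-102981039, plus strand), the inhibitor of CDK9, had normalized counts of 794.4 and 1256 in serum replicates 1 and 2 and of 864.8 and 1224 in 2i replicates 1 and 2. Replicate 2 was the higher library in each medium, and the conditions overlapped. The log2 fold change of Hexim1, serum over 2i, was −0.04 ± 0.47 (SE, n = 2 per condition, limma adjusted p = 0.988), with a 95% interval from −1.18 to 1.10. Hexim1 counts were 8.39 and 11.6 times those of its paralog Hexim2 per kilobase of exon in serum, and 7.75 and 6.25 times in 2i.

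Larp7 (ENSMUSG00000027968, chr3:127239872-127256266, minus strand), which protects the 3′ end of 7SK, had 341.2 and 824.2 counts in serum, against 345.7 and 624.7 in 2i. The replicates of serum were thus 2.41-fold apart and those of 2i 1.80-fold, with the low value in replicate 1 of each medium. The fold change of Larp7 between the media was smaller than either gap, at 0.19 ± 0.60 on the log2 scale (SE, limma adjusted p = 0.950). Without serum replicate 2 it was −0.44, and without serum replicate 1 it was 0.83. Of the 43-base sequence windows of the Larp7 exons, 77.48% occurred in no other gene, and the rest were shared with Gm12666, which had 8.31 to 76.0 counts per library.

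Mepce (ENSMUSG00000029726, chr5:138223134-138227943, minus strand), the 7SK capping enzyme, was the most even member. It had 539.3 and 490.9 counts in serum, against 481.7 and 482.1 in 2i. Both serum values lay above both 2i values, as they did for 20.5% of all genes. The log2 fold change was only 0.09 ± 0.43 (SE, limma adjusted p = 0.969), and the 2 serum libraries differed from each other by 1.10-fold.

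The second group is P-TEFb. Cdk9 (ENSMUSG00000009555, chr2:32561304-32568596, minus strand), its catalytic subunit, had 760.4 and 905.9 counts in serum, against 814.9 and 871.1 in 2i. The 2i values lay between the serum values, and the log2 fold change was −0.02 ± 0.42 (SE, limma adjusted p = 0.992). The 95% interval of −1.04 to 0.99 was the narrowest of the 10 members, and a 2-fold lower level in serum still lay inside it.

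Ccnt1 (ENSMUSG00000011960, chr15:98369120-98401354, minus strand), cyclin T1, was the least reproducible P-TEFb gene. It had 2471 and 3550 counts in serum, against 5240 and 1908 in 2i, so that the 2i libraries gave both the highest and the lowest value and stood 2.75-fold apart. The log2 fold change of −0.09 ± 0.61 (SE, limma adjusted p = 0.977) became 0.63 without 2i replicate 1 and −0.82 without 2i replicate 2. The antisense gene 9330020H09Rik, which shares 695 exonic bases with Ccnt1, was also highest in 2i replicate 1, with 142.2 counts against 26.2 to 38.0 in the other 3 libraries. The library kit does not mark strand, so reads from the shared bases cannot be told apart.

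Ccnt2 (ENSMUSG00000026349, chr1:129670741-129704638, plus strand), cyclin T2, had the largest change of the 10 genes. Its counts were 2921 and 3800 in serum, against 2168 and 1476 in 2i, and both serum values were above both 2i values. The log2 fold change was 0.90 ± 0.46 (SE, n = 2 per condition), a 1.86-fold higher level in serum, with a limma adjusted p of 0.754 (0.0976 unadjusted) and a 95% interval from −0.22 to 2.01. With a correction for GC content and length the log2 fold change fell to 0.51, the median of all genes then being 0.09. Over the other scalings, filters and models it stayed between 0.74 and 0.90. When each library was left out it lay between 0.62 and 1.17. Its adjusted p was 0.700 in edgeR and 0.379 in DESeq2, the latter being the lowest of the 18 alternatives. All 43-base windows of Ccnt2 were its own. Among 5310 other protein-coding genes with a mean of at least 500 counts, Mmgt1, Mphosph8 and Pds5b had the profiles closest to Ccnt2 over the 4 libraries, at distances of 0.02, 0.05 and 0.07 on the centred log2 scale. With 4 libraries such a likeness is a description only.

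The 2 cyclins were also compared within each library, which removes differences in scaling between libraries. The ratio of Ccnt2 to Ccnt1 per kilobase was 0.877 and 0.794 in serum, against 0.307 and 0.574 in 2i. Both serum ratios exceeded both 2i ratios, and both cyclins were higher in 2i replicate 1 than in 2i replicate 2, Ccnt1 by 2.75-fold and Ccnt2 by 1.47-fold. This ratio was chosen after the values of its genes were seen, and it was not tested.

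The third group is NELF, for which serum and 2i overlapped in every subunit. Whsc2 (Nelfa, ENSMUSG00000029111, chr5:34239585-34279062, minus strand) had 1023 and 709.6 counts in serum, against 808.7 and 658.6 in 2i, with a log2 fold change of 0.22 ± 0.45 (SE, limma adjusted p = 0.917). Without serum replicate 1 it was −0.04. Its exons share 1040 bases with those of Whsc1 on the opposite strand, and 79.57% of its 43-base windows were its own. Whsc1 had 1524 and 2364 counts in serum, against 630.1 and 555.8 in 2i, and its part in the Whsc2 values was not tested.

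Cobra1 (Nelfb, ENSMUSG00000013465, chr2:25055232-25067009, minus strand) showed the largest difference towards 2i. It had 378.2 and 624.0 counts in serum, against 493.1 and 1171 in 2i. The 2i replicates stood 2.37-fold apart, and 2i replicate 1 lay between the serum libraries. The log2 fold change was −0.64 ± 0.58 (SE, limma adjusted p = 0.791), and it ranged from −0.02 when 2i replicate 2 was left out to −1.27 when 2i replicate 1 was.

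Th1l (Nelfcd, ENSMUSG00000016253, chr2:174241305-174253003, plus strand) had 605.3 and 618.2 counts in serum, against 547.1 and 747.9 in 2i. The nearly equal serum values lay inside the range of 2i, and the log2 fold change was −0.06 ± 0.44 (SE, limma adjusted p = 0.979). Rdbp (Nelfe, ENSMUSG00000024369, chr17:34987336-34993317, plus strand), the subunit with an RNA recognition motif, had 425.2 and 501.5 counts in serum, against 395.5 and 548.1 in 2i. Here too serum lay inside 2i, and the log2 fold change of −0.01 ± 0.45 (SE, limma adjusted p = 0.996) was the smallest of the 10.

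By complex, the median log2 fold change was 0.09 for the 3 snRNP proteins, −0.02 for the 3 P-TEFb genes and −0.04 for the 4 NELF genes, against 0.0047 for all genes tested. Over the 10 members it was −0.02, and 4 of 10 were positive. With a correction for GC content and length this median was 0.26 and 8 of 10 were positive, the median of all genes then being 0.09. The median absolute log2 fold change was 0.09 for the members, 0.55 for all genes and 0.48 for genes with a mean of at least 200 counts. After the correction for GC content and length it was 0.32 for the members against 0.51 for all genes. Leaving out serum replicate 2 gave 0.36 against 0.48, leaving out 2i replicate 1 gave 0.29 against 0.70, and leaving out 2i replicate 2 gave 0.18 against 0.63. A change smaller than 0.5 on the log2 scale was seen in 8 of 10 members and in 46.19% of all genes. The members' median SE of 0.46 was somewhat below the 0.57 of all genes. In 9 of 10 members the larger of the 2 gaps between replicates exceeded the fold change between the media. The share of all genes for which this held was not worked out, so the count is not a result about the members. The count of members with both serum values above both 2i values was 2 of 10, at the 20.5% found for all genes, and the count in the opposite direction was 0 of 10, against 19.4%. Among protein-coding genes with a mean of at least 200 counts these shares were 25.6% and 14.4%.

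Replicates 1 and 2 were also compared within each medium. Counts were higher in replicate 2 than in replicate 1 for 8 of 10 members in serum and for 7 of 10 in 2i, while among all genes this held for 52.4% and 51.2%. The 7 include Mepce, whose 2i values were nearly equal (481.7 and 482.1). Ccnt1 and Ccnt2 were higher in replicate 2 in serum but in replicate 1 in 2i. Summed over the 3 snRNP proteins, counts were 1675 and 2571 in serum, against 1692 and 2331 in 2i. The NELF sums were 2431 and 2453 in serum, against 2244 and 3125 in 2i. The P-TEFb sums ran from 6152 and 8256 in serum to 8223 and 4255 in 2i, and 2i replicate 1, with its high Ccnt1, was close to serum replicate 2.

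Levels of different genes were compared as normalized counts per kilobase of exon. Ccnt1 had the highest mean over the 4 libraries, 359.5, followed by Hexim1 at 304.3 and Larp7 at 284.0. Next came Rdbp at 225.2, Th1l at 218.4, Ccnt2 at 209.9, Cobra1 at 194.2 and Cdk9 at 181.8, and Whsc2 at 162.3 and Mepce at 151.4 were lowest. The ranges of all neighbours in this order overlapped, so that the order itself is not firm. The means of the 4 NELF subunits lay between 162.3 and 225.2 on this scale, around the 181.8 of Cdk9.

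**Figure D2:**
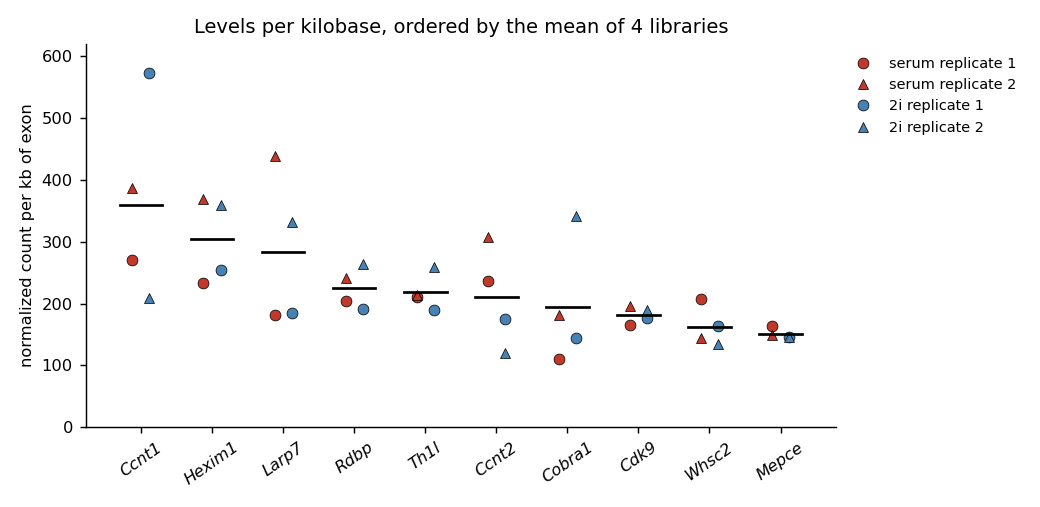
Normalized counts per kilobase of exon for the 10 genes in each library, in order of their mean over the 4 libraries (black bars), with colours for the medium and symbols for the replicate. Means run from 359.5 for Ccnt1 to 151.4 for Mepce, and the points of neighbouring genes overlap.

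Ratios between complexes addressed the balance of inhibitor and kinase at the RNA level. The ratio of Hexim1 to the sum of Ccnt1 and Ccnt2 per kilobase was 0.461 and 0.531 in serum, against 0.340 and 1.10 in 2i. The serum libraries were close to each other, and the 2i libraries lay on either side of them. Larp7 to Cdk9 gave 1.10 and 2.23 in serum, against 1.04 and 1.76 in 2i, which separated the replicate numbers rather than the media. The mean NELF subunit to Cdk9 gave 1.11 and 0.995 in serum, against 0.973 and 1.32 in 2i. None of these 3 ratios separated serum from 2i.

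The 7SK RNA itself was far more abundant in the libraries than any of the proteins' mRNAs. Its normalized counts were 738000 and 276500 in serum, against 993700 and 855500 in 2i, and it ranked between the third and the sixth gene of each library. Both 2i values exceeded both serum values, as for 19.4% of all genes. The log2 fold change was −1.03 ± 1.44 (SE, limma adjusted p = 0.875, 95% interval from −4.49 to 2.44), and the serum libraries were 2.67-fold apart. It was −0.32 without serum replicate 2 and −1.74 when serum replicate 1 was left out. With a correction for GC content and length the sign turned, to 0.20. Only 31.14% of its 43-base windows were its own, the rest being shared with other genes named 7SK.

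As a share of the reads of all genes in the table, 7SK made up 2.78% (95% Wilson interval 2.77 to 2.78) and 1.502% (1.497 to 1.508) in serum. In 2i it made up 4.42% (4.41 to 4.43) and 4.32% (4.31 to 4.33). These intervals cover counting error only. Per 100 reads of protein-coding genes there were 5.92 and 1.97 reads of 7SK in serum, against 7.65 and 6.51 in 2i, and the order of the media held on this scale too. All genes typed misc_RNA together took 42.1% and 7.38% of reads in serum and 18.3% and 21.5% in 2i. In the misc_RNA share the 2 serum libraries thus differed more from each other than from either 2i library.

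**Figure D3:**
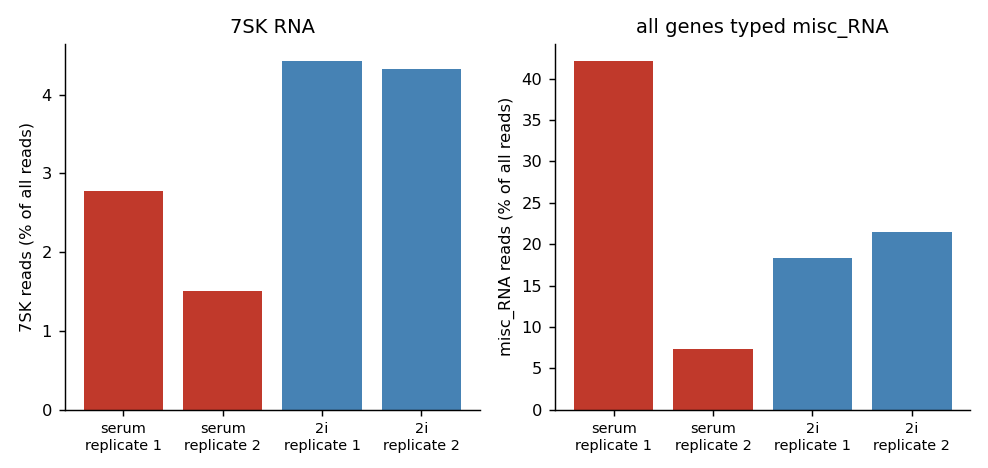
Share of the reads of all genes in the table taken by the 7SK RNA (left) and by all genes typed misc_RNA (right). Shares are in percent for each of the 4 libraries, with serum in red and 2i in blue. The 7SK share is 4.42% and 4.32% in 2i and 2.78% and 1.502% in serum, while the misc_RNA share runs from 42.1% in serum replicate 1 to 7.38% in serum replicate 2.

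Negative fold changes were also common among other short noncoding RNAs in the table. A gene enters the table on its level in either medium. A gene near 0 in serum is thus listed only if it was high in 2i, and the reverse holds for a gene near 0 in 2i. The counts that follow are a description with no test. Of 57 snRNA genes shorter than 400 bases, all 57 had a negative log2 fold change, with a median of −4.56, and 39 (68.4%) had both 2i values above both serum values. These short RNAs were taken from all 14533 genes, without the expression filter. Among the 13005 genes that passed the filter, 50.3% were positive, and 19.4% had both 2i values above both serum values. That order held for 55.7% of the snoRNA genes and 15% of the misc_RNA genes that follow. Of 131 snoRNA genes, 127 were negative (median −2.70), and of 80 misc_RNA genes other than 7SK, 73 were negative (median −1.56). RNase_MRP, the RNA of an enzyme that processes ribosomal RNA, had 277300 and 177100 counts in serum, against 495800 and 573100 in 2i. The most abundant RNaseP_nuc gene, the RNA of the enzyme that trims tRNA precursors, had 35360 and 20430 counts in serum, against 15500 and 28860 in 2i, and the media overlapped. The part of these RNAs in the 7SK difference was not tested. Set against the mRNA of its partner, 7SK was 9545 and 2263 times Hexim1 per kilobase in serum, against 11810 and 7180 times in 2i, and these ratios overlapped between the media.

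The members were then set beside 69 other genes of pausing and elongation, of which 68 were tested (Supt4h2 had no entry in the table). The number called was 0 of 68 in limma and 0 in edgeR, and DESeq2 called 1 gene, Ddx21 (adjusted p = 0.0348), where it called 1.95% of all genes. In limma 5 of the 68 had an unadjusted p under 0.05, all with higher values in serum (7.35%, against 2.97% of all genes and 3.95% of the 8363 protein-coding genes with a mean of at least 200 counts). The median log2 fold change of the 68 genes was 0.50, against 0.0047 for all genes and 0.13 for those protein-coding genes. Positive values were seen in 52 of 68 (76.5%), against 50.3% and 57.9%. Both serum values exceeded both 2i values for 30 of 68 genes (44.1%), against 20.5% of all genes and 25.6% of those protein-coding genes. The opposite held for 8 of 68 (11.8%), against 19.4% and 14.4%. Serum replicate 2 was the highest library for 38 of 68 (55.9%), against 30.3% of all genes and 38.1% of those protein-coding genes. Leaving out serum replicate 2 gave a median of 0.28, and leaving out 2i replicate 1 gave 0.24.

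**Figure D4:**
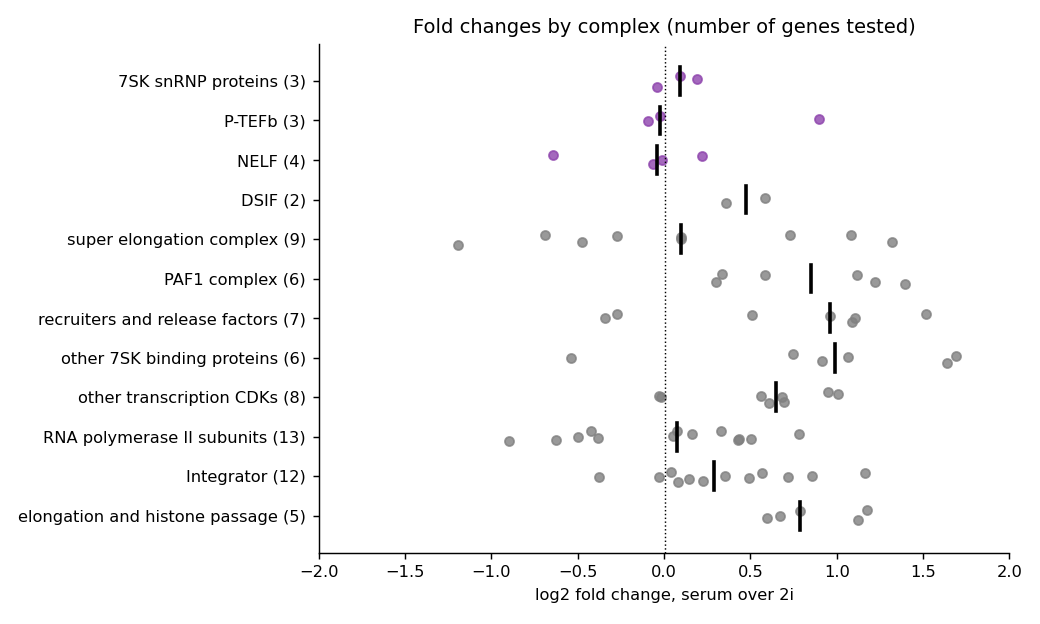
Log2 fold change, serum over 2i, of each gene tested (points, with a small vertical offset for legibility) by complex or list, with the median as a black bar and the median of all genes as a dotted line. The 3 complexes at the top (purple) have medians of 0.09, −0.02 and −0.04, and the PAF1 complex, the recruiters and release factors and the other 7SK binding proteins have medians of 0.85, 0.96 and 0.99.

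The 2 tested genes of DSIF, the partner of NELF, had a median log2 fold change of 0.47. Counts were 1963 and 2421 in serum, against 1414 and 1492 in 2i for the large subunit Supt5h (log2 fold change 0.59 ± 0.43, SE, limma adjusted p = 0.763). The small subunit Supt4h1 varied 3.93-fold between the 2i libraries. In the super elongation complex, in which P-TEFb acts with AFF and ELL proteins, the 9 genes had a median of 0.10 and pointed both ways. Ell2 had 831.4 and 1243 counts in serum, against 548.1 and 301.7 in 2i (log2 fold change 1.32, limma adjusted p = 0.754). Ell3 had 107.1 and 98.2 in serum, against 185.8 and 299.7 in 2i (−1.20, limma adjusted p = 0.754), and 37.93% of its windows were its own. The scaffold Aff4 had 4804 and 7574 in serum against 3043 and 2668 in 2i, and Aff1 had 1909 and 1359 against 3410 and 1984.

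All 6 genes of the PAF1 complex, which travels with the elongating polymerase, had positive fold changes, with a median of 0.85. The largest was that of Rtf1, with 675.4 and 1219 counts in serum, against 414.2 and 286.2 in 2i (log2 fold change 1.40, limma adjusted p = 0.754). Among 7 recruiters and release factors the median was 0.96. Ddx21, a helicase that helps to free P-TEFb from 7SK, had 6230 and 10270 counts in serum, against 2811 and 2780 in 2i (1.52, limma adjusted p = 0.754).

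The 6 other 7SK binding proteins had a median of 0.99, and 4 of them were highest in serum replicate 2. For 5 of the 6 both serum values lay above both 2i values, against 20.5% of all genes. Among protein-coding genes with a mean of at least 200 counts the share was 25.6%. Hnrnpa2b1, one of the hnRNPs that bind 7SK freed of P-TEFb, had 9329 and 25090 counts in serum, against 6161 and 3656 in 2i (1.69, limma adjusted p = 0.754). Hexim2 was the exception, with 66.0 and 75.8 in serum, against 77.9 and 136.8 in 2i. Hnrnpa1, also among the 5, is uncertain, since 20.48% of its windows were its own and its 2i libraries were 6.02-fold apart. In the elongation and histone passage list (5 genes, median 0.78), Supt6h had 2362 and 3831 counts in serum, against 1497 and 1181 in 2i (1.18, limma adjusted p = 0.754).

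The 8 genes of the other transcription kinases had a median of 0.65, the largest value being that of Cdk8 at 1.01. The 12 Integrator genes had a median of 0.29, led by Ints9 at 1.17, for which 2i replicate 2 was low with 107.7 counts against 450.5 to 531.3. The 13 subunits of RNA polymerase II had a median of 0.07, close to that of the 10 members, and the largest change among them was Polr2l at −0.90. The medians of all 9 other lists, from 0.07 to 0.99, thus lay to the serum side of the −0.02 of the members, a difference that was not tested. Taken by complex, the 0.09 of the snRNP proteins lay above the 0.07 of the polymerase subunits. With the correction for GC content and length the medians were 0.26 for the members and 0.48 for the other 68 genes.

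Summed over the genes in the table, the libraries came to 18939401 to 26570098 whole reads, and each member had between 333 and 5048 reads per library. Reads of genes left out of the table are not counted in these sums. ESC markers were present throughout, with summed normalized counts over 7 genes of 48230 and 64300 in serum, against 56740 and 78170 in 2i. Primitive endoderm markers were low (4 of 7 in the table, without Sox7, Foxa2 and Dab2), with sums of 72.0 and 108.9 in serum, against 332.2 and 256.1 in 2i. Both 2i sums lay above both serum sums, and Gata4 had 151.6 and 168.8 counts in 2i against 13.0 and 42.8 in serum (limma adjusted p = 0.754). Of 7 fibroblast markers, Col1a1 and Thy1 were in the table, with sums of 230.1 and 193.4 in serum, against 199.3 and 58.2 in 2i. The part of other cell types in the values of the 10 members was not tested.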

How the data were processed

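RNA from sorted G1-phase ESCs was depleted of ribosomal RNA, primed at random and sequenced as 43-base single-end reads. The authors aligned reads with Bowtie to mm9 (version not given in the sources used here), estimated gene counts with MMSeq, kept genes with enough reads in either condition and divided by DESeq2 size factors. The deposited signal values are therefore normalized counts, and 100% of them gave whole reads within 0.01 after rescaling. The list of 10 members and all other lists were chosen with earlier results of these data known.

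Values were tested as log2(value + 1) with limma 3.58.1 (R 4.3.3), without a replicate block, over 13005 genes with a group mean of at least 50. Standard errors and 95% intervals use the moderated variance (4.41 prior and 2 residual degrees of freedom). The recovered whole reads were tested with edgeR 4.0.16 and DESeq2 1.42.0 as alternatives. The limma fitting function was run on simulated data with planted changes larger than that of any member. This checked the code, and not the power to find changes of the members' size. Exons, lengths and windows came from GENCODE vM1, with 1 gene (the longest) kept per symbol. Of each pathway list, genes with an unadjusted p under 0.05 and the gene of largest change were named. Some other list genes, such as Aff4 and Hexim2, were named without such a rule. Other alternatives changed the pseudocount, filter, scaling, GC content and length correction, or left out 1 library. The genes in the table summed to 18939401 to 26570098 whole reads per library.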

Additional observations from a re-analysis of the deposited data

How the results depend on the processing

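The number of members called stayed at 0 in all 18 alternatives. The number of all genes called was 0 in serum and 2 in 2i in the reported test, 77 and 176 with DESeq2, and 0 and 0 with edgeR. It was 44 and 159 with the replicate block, and 3 and 14 with the replicate block plus the GC content and length correction. The GC content and length correction alone gave 0 and 1, as did limma without trend, while a mean of at least 200 counts gave 0 and 4. Leaving out any 1 of the 4 libraries gave 0 and 0. The labels do not say what the replicate number marks. The differences between replicates 1 and 2 correlated between the media (r = 0.48 across genes, and 0.40 after the correction), a hint from the data, and not from the design, that equal numbers share more than a number. The block changed no member's call.

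After the GC content and length correction, with or without the block, log2 fold changes were 0.021 for Hexim1, 0.23 for Cdk9, 0.34 for Th1l, 0.46 for Rdbp and 0.20 for 7SK, all with the opposite sign. The same setting moved the median of NELF to 0.22 and that of the 10 members to 0.26, with 8 of 10 positive, and the median of all genes was then 0.09. Hexim1 stayed below that median, as it did in the reported test. Upper quartile scaling shifted the median of all genes to −0.12, and relative to that shift Mepce, at −0.026, kept its direction. The cause was not tested.

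Leaving out each library gave log2 fold changes from −0.37 to 0.29 for Hexim1, −0.44 to 0.83 for Larp7, −0.15 to 0.10 for Cdk9, −0.82 to 0.63 for Ccnt1, −0.041 to 0.49 for Whsc2, −0.29 to 0.16 for Th1l and −0.25 to 0.22 for Rdbp. For 7SK they ran from −1.74 to −0.32. Medians ran from −0.37 (without serum replicate 2) to 0.29 for the snRNP proteins, from −0.15 to 0.63 (without 2i replicate 1) for P-TEFb and from 0.24 (without 2i replicate 1) to 0.65 for the other pathway genes. The alternatives for the other pathway genes and for 7SK were added after the data were seen. Ccnt2, Cobra1 and the positive median of the other pathway genes kept their sign in all 18. With 2 libraries per medium the intervals are wide. Their limits, as serum over 2i, reach 4.03-fold for Ccnt2, 3.12-fold for Larp7 and a ratio of 0.243 for Cobra1. These limits give the range of changes left by the data, and not the smallest change that the test could call.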
